A study of Mus musculus with 4 samples.

Results

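The 10 imprinted genes with roles in fetal growth followed here in the E14.5 mouse hindlimb were H19, Igf2, Mest, Dlk1, Meg3, Rian, Peg3, Plagl1, Grb10 and Ndn. They were chosen by symbol, and all 10 were found among the 32288 features of the count tables. The samples were 4 single-cell libraries of dissociated hindlimb cells (femur and tibia region), 2 of cells sorted as positive for the tdT reporter (tdT+) and 2 of cells sorted as negative (tdT-), from 2 collections. All embryos carried Gli1CreER/+, the R26 LSL-tdT reporter and Tigre TRE-p21 on an outbred Swiss Webster background, and differed by Col2a1-rtTA, which the Pan-Cart-p21MOE embryos had and the control embryos lacked. Doxycycline (1 mg/ml in water, and in food) was given from E12.5 and tamoxifen (120 µg/g) at E13.5. With Col2a1-rtTA, doxycycline turns on p21, a blocker of the cell cycle, in part of the cartilage, and tamoxifen marks with tdT the cells that express Gli1 at that time and their descendants. Controls therefore also carried the silent p21 transgene and received both drugs.

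Each library joined cells of both conditions. In library number 1 of each fraction (tdT+ 1 and tdT- 1) the Pan-Cart-p21MOE cells were male and the control cells female, and in number 2 (tdT+ 2 and tdT- 2) the reverse, so the condition of a cell was read from its sex-specific transcripts. This gave 8 sums of cells (pseudobulks), 4 per condition, which stand for 2 embryo pools per condition, with sex balanced between conditions. The sources used here differ on how many embryos each pool held, and p-values therefore measure the spread between these 8 sums, in which the tdT+ and tdT- sums of a pool share their embryos.

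An imprinted gene is read mainly from the copy inherited from 1 parent. Igf2, Mest, Dlk1, Peg3, Plagl1 and Ndn are known in the mouse as paternally expressed, and H19, Meg3, Rian and, outside the brain, Grb10 as maternally expressed. Igf2 encodes a growth factor, and H19 is a non-coding RNA from the same domain of chromosome 7. Dlk1 encodes a transmembrane relative of the Notch ligands that is known from chondrocyte and fat cell precursors. It shares a domain of chromosome 12 with the non-coding RNAs Meg3 and Rian, which come from the other parental copy and carry microRNAs and small nucleolar RNAs. Mest encodes a hydrolase-like membrane protein, Peg3 and Plagl1 encode zinc finger proteins, Grb10 encodes an adaptor that dampens insulin and IGF receptor signalling, and Ndn encodes a MAGE family protein linked to growth arrest. The parental copy behind each transcript was not measured here.

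The gene bodies lie, in GRCm38 with GENCODE annotation, at chr7:142575529-142578143 on the minus strand for H19 and chr7:142650766-142666816 on the minus strand for Igf2. On the plus strand of chromosome 12, Dlk1 spans chr12:109452823-109463336, Meg3 spans chr12:109541001-109571726 and Rian spans chr12:109603940-109661716. The remaining 5 are Mest at chr6:30723547-30748465 (plus), Peg3 at chr7:6703892-6730431 (minus), Ndn at chr7:62346569-62350262 (plus), Plagl1 at chr10:13060504-13131694 (plus) and Grb10 at chr11:11930508-12038683 (minus). Genes on the opposite strand overlap Igf2 (Igf2os), Mest (Copg2 and Gm44296), Meg3 (Gm26906), Ndn (Gm32061), H19 (Gm27483 and Gm27786) and Plagl1 (Gm27741), and counting by strand was not given in the sources used here, so reads in those overlaps are of uncertain origin.

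H19, Meg3 and Rian are host genes of microRNAs, and the letters of these microRNAs are given below. The mature sequences of these 3 hosts are shown because H19 and Rian are among the genes whose values did not overlap between the conditions in chondrocytes, and Meg3 is the gene most like Rian. They are RefSeq sequences on GRCm38.p6, written 5′ to 3′ with the seed (bases 2 to 8) in capitals. The pair from miR-675 lies in an exon of H19 at chr7:142577078-142577133. The next 3 lie in exons of Meg3 between chr12:109544588 and chr12:109563765, and the last 6 in introns of Rian between chr12:109611521 and chr12:109618326.
mmu-miR-675-5p: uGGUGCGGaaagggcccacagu
mmu-miR-675-3p: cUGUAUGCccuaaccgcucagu
mmu-miR-1906: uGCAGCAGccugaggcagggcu
mmu-miR-770-5p: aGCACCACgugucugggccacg
mmu-miR-770-3p: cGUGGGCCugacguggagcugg
mmu-miR-341-5p: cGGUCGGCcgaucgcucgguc
mmu-miR-341-3p: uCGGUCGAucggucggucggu
mmu-miR-1188-5p: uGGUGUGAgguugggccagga
mmu-miR-1188-3p: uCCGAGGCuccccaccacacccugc
mmu-miR-370-5p: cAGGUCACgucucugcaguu
mmu-miR-370-3p: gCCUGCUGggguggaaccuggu
The 11 seeds all differ. Igf2 and Mest also host miR-483 and miR-335 in introns, 2 mature forms each. The libraries count polyadenylated transcripts, so the microRNAs themselves were not measured.

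The 250 bases before the RefSeq start of Dlk1, of the first Meg3 start and of Rian are shown because these 3 neighbours on chromosome 12 differ in their spread over cell types and in the comparison of conditions. All 3 are on the plus strand of GRCm38.p6, at chr12:109452573-109452822, chr12:109540746-109540995 and chr12:109603695-109603944. Capitals mark matches, read on both strands, to 4 motifs. These are the TATA box with the letters TATAAA, the GC box with the letters GGGCGG, the CCAAT box with those of its name, and the palindrome spelled GGGGCCCC.
Dlk1: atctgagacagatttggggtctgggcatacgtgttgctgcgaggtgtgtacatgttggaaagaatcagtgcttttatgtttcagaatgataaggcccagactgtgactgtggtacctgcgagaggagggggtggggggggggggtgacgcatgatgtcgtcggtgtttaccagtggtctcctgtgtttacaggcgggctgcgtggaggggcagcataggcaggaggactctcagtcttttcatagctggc
Meg3: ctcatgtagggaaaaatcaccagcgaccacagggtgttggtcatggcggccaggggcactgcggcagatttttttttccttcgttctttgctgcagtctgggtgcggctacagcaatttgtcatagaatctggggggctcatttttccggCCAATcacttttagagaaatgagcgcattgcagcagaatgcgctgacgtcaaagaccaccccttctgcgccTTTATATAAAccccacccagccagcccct
Rian: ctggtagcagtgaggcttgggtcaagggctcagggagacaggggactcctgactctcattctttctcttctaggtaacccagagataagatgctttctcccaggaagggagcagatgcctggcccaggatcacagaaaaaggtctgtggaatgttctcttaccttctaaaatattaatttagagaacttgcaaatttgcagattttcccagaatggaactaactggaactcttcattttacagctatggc
The Meg3 window held a TATA box, where matches on the 2 strands overlap, and a CCAAT box, and the Dlk1 and Rian windows held none of the 4. Over 32851 windows of the same length in the table, 12.4% held the TATA box, 32.7% the GC box, 33.9% the CCAAT box and 0.889% the palindrome. The Dlk1 window had 8 CpG dinucleotides, the Meg3 window 10 and the Rian window 0, against a median of 6. Of the 16 windows matched to 9 of the 10 genes, only that of Peg3 held the palindrome.

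Of 18955 barcodes, 2767 passed as cells of known condition, 98 to 784 per pseudobulk, with a median of 16503 to 27184 UMIs (unique molecules counted) per library. Clustering gave 21 clusters, of which 5 with 821 cells were named chondrocyte-like from markers (clusters 2, 6 and 21 proliferative, cluster 4 resting, cluster 12 hypertrophic), and 1946 cells made up all other cells. The 9 general chondrocyte markers summed to 15648 to 18821 CPM (UMIs scaled to a total of 1000000 per sum of cells) in the chondrocyte pseudobulks and 2932 to 5246 CPM in the others, and none was at 0. In cluster 12 the endothelial marker list scored second (2.30 against 2.81 for the hypertrophic list), and Cdh5 and Plvap were among its leading genes. The part of such transcripts in the levels of cluster 12 was not tested. Cluster 21 (12 cells) came from a single pseudobulk, Pan-Cart-p21MOE of tdT- 2, and 94.6% or more of clusters 14, 18, 19 and 20 from a single library. These 4 clusters, counted among the other cells, held Pan-Cart-p21MOE cells only. Without them the other cells numbered 1100 instead of 1266 in Pan-Cart-p21MOE and 680 as before in control. They were also shallow, at 0.141 to 0.483 of the median UMIs of their libraries. Of the kept barcodes, at most 1 was shared by any pair of libraries. As a check of the p21 transgene, the WPRE element, which the tdT allele carries too, stood at 1082 to 1799 CPM in Pan-Cart-p21MOE chondrocytes and 60.7 to 583 CPM in control chondrocytes, with no overlap. Within the controls it stood at 460 and 583 CPM in tdT+ and at 60.7 and 96.3 CPM in tdT- chondrocytes. Cdkn1a, which encodes p21, stood at 57.4 to 66.0 CPM in Pan-Cart-p21MOE and 23.6 to 95.5 CPM in control chondrocytes, with overlap. The number of chondrocytes per pseudobulk ran from 34 to 262, with 802477 to 7462002 UMIs.

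Each member had a UMI in at least 79.8% of the 2767 cells. After thinning to 5000 UMIs per cell, H19 had a UMI in 98.7% of 2539 cells, Meg3 in 96.4%, Mest in 95.7%, Igf2 in 95.4% and Grb10 in 94.1%. The shares were 90.5% for Peg3, 81.5% for Dlk1, 77.2% for Rian, 64.9% for Plagl1 and 46.2% for Ndn. Unthinned, the lowest share was that of Ndn and the highest that of H19 (99.9%). As a rough guide to background, 6 cells with at least 10 UMIs of immune markers (median 52238 UMIs) held H19 at 112 CPM against 2187 CPM in the rest and Dlk1 at 155 against 1030 CPM. Across the 10 genes, these 6 cells stood at 0.0317 to 0.156 of the level in the rest, so levels of that order were not shown to be distinct from background. Free RNA is an amount per droplet, and these 6 cells were deeper than the kept cells of each library (medians of 16503 to 27184 UMIs). Their CPM is therefore not an exact floor for shallower cells.

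The spread over cell types differed widely between the members. Levels were compared over 16 clusters with at least 3 pseudobulks of 100000 UMIs or more, as means over pseudobulks. The members and the other imprinted genes were left out of the genes that formed the clusters, and the levels are given as a description without a test. Dlk1 ran from 2184 ± 484 CPM (SD, n = 8) in the resting chondrocyte-like cluster to 60.9 ± 30.02 CPM (n = 4) in the osteoprogenitor-like cluster, a 35.8-fold difference. That low end, like the 121 CPM of cluster 1, lies under the 155 CPM of the cells with immune markers, and the highest level was 14.1-fold that value. For the other 9 genes the lowest cluster lay above the level in those cells, which, given their depth, does not show that it exceeded background. After the resting chondrocyte-like cluster came the loose connective tissue-like cluster with 1660 ± 413 CPM (n = 7) and the unnamed cluster 9 with 1558 ± 293 CPM (n = 6). The unnamed cluster 17 with 1501 ± 359 CPM (n = 4) and the interzone-like cluster with 1427 ± 311 CPM (n = 8) followed. Cluster 9 was led by Coro1a, Arhgdib and Laptm5, and its best-scoring marker list was the immune one, with too few markers for a name. Its Dlk1 level stood far above the 155 CPM of the cells with immune markers. The proliferative chondrocyte-like cluster 2 stood at 1349 ± 309 CPM (n = 8), the hypertrophic-like cluster at 634 ± 219 CPM (n = 7) and cluster 1 at 121 ± 19.2 CPM (n = 8). Cluster 1 was unnamed. It scored best on the perichondrium or groove of Ranvier list (1.21, with Aspn, Thbs2, Ogn, Fgf18 and Dkk3). The osteoprogenitor list came second (0.797), and Alpl and Runx2 were among the 10 leading genes. Neighbours in this order overlapped in 14 of 15 pairs, the exception being the step from the muscle-like cluster (311 CPM) to cluster 1, so the ends of the order were apart and its steps were not.

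The other genes of the chromosome 12 domain, Rian and Meg3, ranged 21.1-fold and 14.4-fold. Both were highest in the proliferative chondrocyte-like cluster 2 (Rian 1410 ± 503 CPM, Meg3 4440 ± 760 CPM, n = 8) and lowest, like Dlk1, in the osteoprogenitor-like cluster (66.8 ± 54.3 and 308 ± 194 CPM, n = 4). The 3 genes of the domain therefore had their low end in the same cluster, where Dlk1 lay under the level of the cells with immune markers. The high end was cluster 2 for Meg3 and Rian and the resting chondrocyte-like cluster for Dlk1. It was not shared by the proliferative-like cluster 6, which held Rian at 474 ± 142 CPM and Meg3 at 2071 ± 407 CPM (n = 8). Cluster 6 scored 2.18 on the proliferative marker list and cluster 2 scored 0.970. The 10 leading genes of cluster 6 held 4 proliferative or general chondrocyte markers, and those of cluster 2 held 0.

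H19 and Igf2 did not share that low end. The osteoprogenitor-like cluster held H19 at 2960 ± 489 CPM (n = 4) and Igf2 at 1131 ± 184 CPM, near the top of both orders, and cluster 1 held them at 2670 ± 454 and 1153 ± 97.0 CPM (n = 8). H19 was highest in the interzone-like cluster (3420 ± 787 CPM, n = 8) and Igf2 in cluster 1, and both were lowest in the muscle-like cluster (954 ± 383 and 420 ± 211 CPM, n = 4). H19 ranged 3.59-fold, and Igf2 ranged 2.75-fold, the least of the 10 genes.

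Plagl1, a zinc finger regulator of growth, ranged 8.52-fold, from 791 ± 147 CPM in the hypertrophic-like cluster to 92.9 ± 34.9 CPM in cluster 7 (n = 7 each). Peg3 ranged 4.92-fold, from 1540 ± 250 CPM in cluster 2 (n = 8) to 313 ± 146 CPM in cluster 9 (n = 6), and cluster 6 held it at 842 ± 169 CPM (n = 8). Mest was highest in the resting chondrocyte-like cluster (1628 ± 271 CPM, n = 8) and lowest in the hypertrophic-like cluster (478 ± 242 CPM, n = 7). Grb10 was highest in cluster 5 (1187 ± 164 CPM, n = 8), led by Bmp5 and Itgbl1 among others, and lowest in cluster 9 (349 ± 77.0 CPM, n = 6), and Ndn ran from 195 ± 45.3 CPM in the loose connective tissue-like cluster (n = 7) to 66.3 ± 10.5 CPM in the muscle-like cluster (n = 4). For all 10 genes the pseudobulks of the highest and the lowest cluster did not overlap. Those clusters were picked by the same values, so this separation is largely set by the choice. The share of all genes that separate in this way was not counted.

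**Figure D1:**
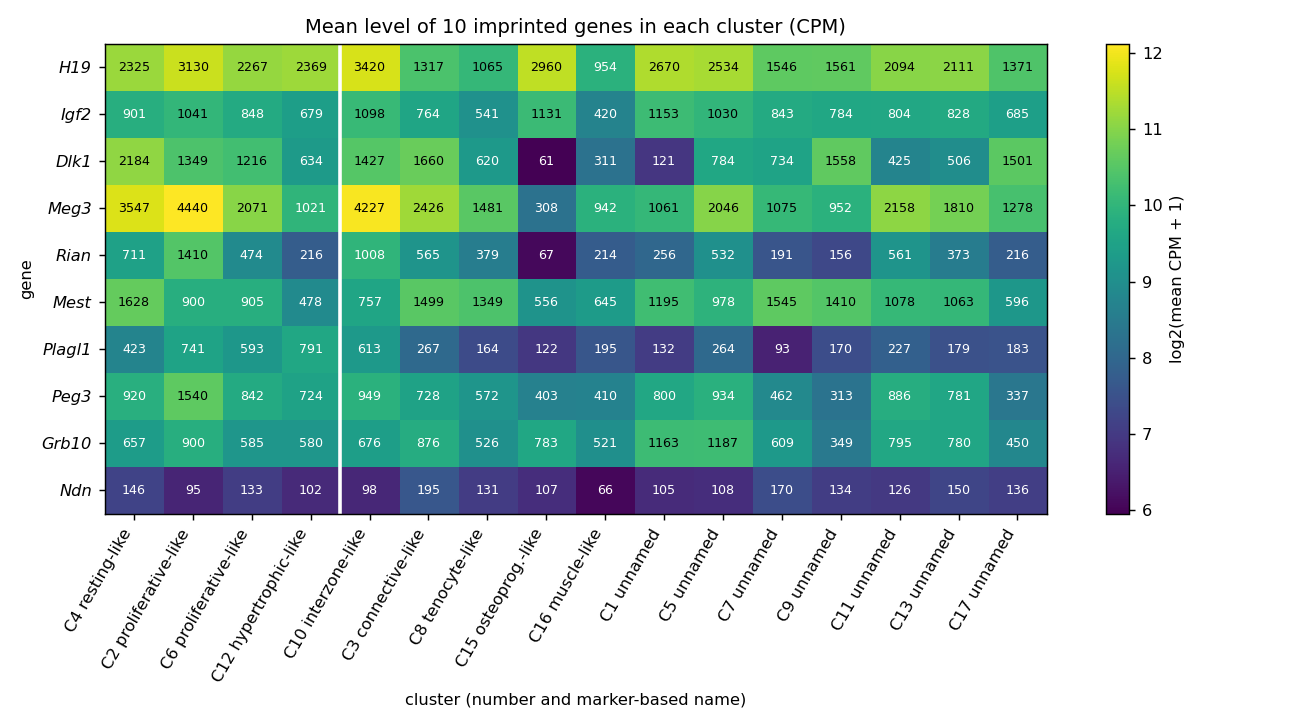
Mean level of each of the 10 genes (CPM, colour on a log scale) in the 16 clusters with at least 3 pseudobulks. Dlk1, Meg3 and Rian are lowest in the osteoprogenitor-like cluster, where H19 and Igf2 stand at 2960 and 1131 CPM.

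Among the chondrocyte-like clusters, the members fell into opposite orders. Compared within the same pseudobulk, resting cells exceeded hypertrophic cells 3.79-fold for Mest, 3.51-fold for Dlk1, 4.32-fold for Meg3 and 4.10-fold for Rian, in 7 of 7 pseudobulks each. In 2 of these 7 the hypertrophic cluster held only 2 cells, and over the 5 with at least 5 cells, a limit chosen after seeing the data, the folds were 3.14 for Mest, 3.46 for Dlk1, 2.91 for Meg3 and 2.59 for Rian, higher in 5 of 5. Plagl1 ran the other way, with resting cells at 0.553 of the hypertrophic level and higher in 0 of 7. Against the proliferative cluster 2, resting cells had more Mest (1.81-fold), Dlk1 (1.62-fold) and Ndn (1.54-fold) in 8 of 8 pseudobulks, but less Rian (0.515) and less Meg3 (0.795), higher in 0 of 8. Against the other proliferative cluster, cluster 6, they had more Dlk1 (1.84-fold), Mest (1.82-fold) and Meg3 (1.71-fold) in 8 of 8. Chondrocytes as a class exceeded all other cells of the same pseudobulk in Plagl1 (2.76-fold), Rian (1.94-fold), Dlk1 (1.77-fold), Meg3 (1.73-fold), Peg3 (1.54-fold) and H19 (1.26-fold), in 8 of 8 pseudobulks each, while Igf2 was level (1.03-fold, higher in 6 of 8). Chondrocytes had less Mest (0.881, higher in 2 of 8), Ndn (0.907, higher in 1 of 8) and Grb10 (0.855, higher in 1 of 8).

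The question of the next comparison is what mosaic p21 expression in the cartilage does to these genes in chondrocytes. Dlk1 fell, and it was the only member past the threshold. It stood at 1046, 1256, 1202 and 1205 CPM in the Pan-Cart-p21MOE pseudobulks of tdT+ 1, tdT- 1, tdT+ 2 and tdT- 2 and at 1756, 1912, 1746 and 1557 CPM in the control pseudobulks in the same order, scaled by TMM as all CPM of this comparison. Every Pan-Cart-p21MOE value lay below every control value, and the mean was 32.4% lower. The log2 change was -0.57 (SE 0.0811, 95% interval -0.743 to -0.391), and edgeR's quasi-likelihood test gave it an adjusted p (Benjamini-Hochberg) of 0.011, rank 12 of 11757 genes by p. Over all genes, 0.553% were called, 0.451% as lower and 0.102% as higher. Dlk1 was lower in 4 of 4 libraries, by log2 changes of -0.75 to -0.37, so the direction was the same in both collections and in both pairings of sex and condition.

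The call for Dlk1 was lost in 5 of 20 alternatives, while its log2 change stayed between -0.64 and -0.49 in all 20. Without Pan-Cart-p21MOE of tdT+ 2 the adjusted p by edgeR was 0.0511, and with the fractions of each embryo pool summed, which leaves 2 against 2, it was 0.108.

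Another 3 members had non-overlapping values in chondrocytes without passing the threshold. H19 stood at 2383, 2187, 2348 and 2420 CPM in Pan-Cart-p21MOE and 2864, 2714, 3015 and 2737 CPM in control chondrocytes, in the library order above. Its log2 change was -0.28 (95% interval -0.406 to -0.149), with an adjusted p of 0.0622 by edgeR. With the library as a replicate block, since both conditions of a library shared a reaction, its adjusted p was 0.0266, and with the fractions of each embryo pool summed it was 0.469, both by edgeR. Rian stood at 765, 712, 711 and 668 CPM against 1102, 846, 880 and 874 CPM, a log2 change of -0.37 (95% interval -0.555 to -0.191, adjusted p = 0.0741 by edgeR). The control of tdT+ 1 was far above the other controls of Rian, and without it the log2 change was -0.29 (adjusted p = 0.225 by edgeR). Plagl1 differed least, at 589 to 614 CPM against 633 to 703 CPM (log2 change -0.14, adjusted p = 0.51 by edgeR).

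Not overlapping was therefore found in 4 of the 10 genes, all lower in Pan-Cart-p21MOE, where 3.52% of all genes tested were lower and 3% higher without overlap. An unadjusted p under 0.05 by edgeR was found for 4 members (Dlk1, H19, Rian and Meg3) and for 11.3% of all genes. H19 passed the threshold in 5 of 20 alternatives and Rian in 3 of 20, both of them with DESeq2, limma voom and no filter on low counts. Neither passed with any pseudobulk left out or with the fractions of each pool summed, where the adjusted p of Rian was 0.378 by edgeR.

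Of the remaining members, Meg3 stood at 2798, 2938, 3091 and 2889 CPM in Pan-Cart-p21MOE and 3356, 3616, 3325 and 3034 CPM in control chondrocytes (log2 change -0.19, adjusted p = 0.303 by edgeR), and the groups overlapped by the lowest control. Igf2, the growth factor of the H19 domain, stood at 830 to 928 against 848 to 1012 CPM, a log2 change of -0.12 with a 95% interval of -0.291 to 0.0481. Mest (-0.09), Peg3 (-0.09), Grb10 (0.02) and Ndn (0.04) had log2 changes whose intervals included 0 and reached no further than -0.337 and 0.277. Of the 10 log2 changes 8 were negative, with a median of -0.13, against -0.0026 over all genes. Summed, the 10 genes took 1.13 to 1.17% of the UMIs of Pan-Cart-p21MOE chondrocytes and 1.20 to 1.39% of those of control chondrocytes.

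**Figure D2:**
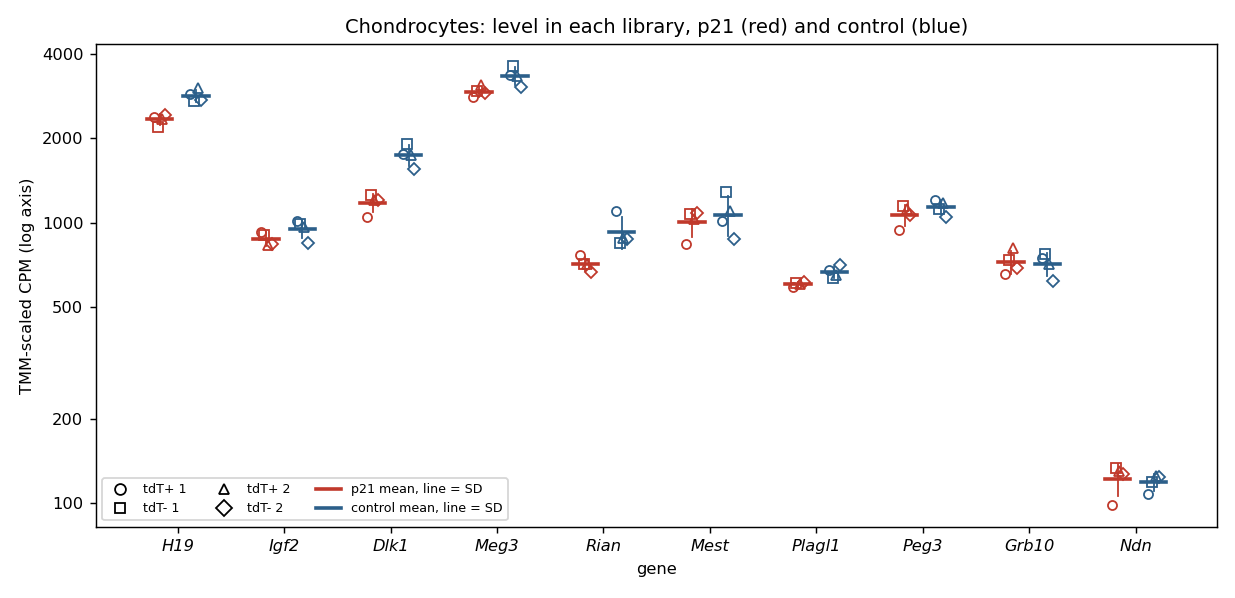
Level of each gene (TMM-scaled CPM, log axis) in the 8 chondrocyte pseudobulks, with a symbol per library and lines for the mean and SD of each condition. Dlk1 lies at 1046 to 1256 CPM in Pan-Cart-p21MOE and 1557 to 1912 CPM in control cells, and Igf2, Mest, Peg3, Grb10 and Ndn overlap.

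Another cell state moved with this comparison. The 7 proliferative chondrocyte markers summed to 5020 to 5484 CPM in Pan-Cart-p21MOE and 6226 to 6597 CPM in control chondrocytes, with no overlap and no marker at 0, and the other marker lists overlapped. Their part in the differences of Dlk1, H19, Rian and Plagl1 was not tested. Within the resting chondrocyte-like cluster alone, Dlk1 stood at 1388 to 2231 CPM against 2289 to 3048 CPM, with no overlap, and its log2 change was -0.49 (adjusted p = 0.2 by edgeR). Within the proliferative clusters together the log2 change was -0.64 (adjusted p = 0.0697 by edgeR). Rian differed between these subsets, with log2 changes of -0.09 in the resting and -0.45 in the proliferative clusters, and the difference between them was not tested.

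Cluster by cluster, Dlk1 was the member with the most separations. It had a lower mean in Pan-Cart-p21MOE in 10 of 13 clusters with at least 3 pseudobulks per condition, and in 5 of them the groups did not overlap. Over all genes and clusters, 2.64% of comparisons were lower and 2.76% higher without overlap. The pseudobulks of these 5 clusters held 4 to 68 cells. In the proliferative-like cluster 6 it stood at 794 to 990 CPM against 1308 to 1872 CPM (n = 4 and 4). Of the 5 clusters, 3 lay outside the chondrocyte class. In the interzone-like cluster Dlk1 stood at 982 to 1308 CPM against 1485 to 2011 CPM (n = 4 and 4), in cluster 5 at 509 to 623 CPM against 764 to 1233 CPM (n = 4 and 4), and in cluster 9 at 1226 to 1345 CPM against 1712 to 1945 CPM (n = 3 and 3). In the proliferative-like cluster 2 the groups overlapped, at 916 to 1333 against 1250 to 1788 CPM. The mean was higher in Pan-Cart-p21MOE in the loose connective tissue-like cluster (1945 against 1447 CPM), the tenocyte-like cluster (655 against 574 CPM) and cluster 13 (592 against 391 CPM), each with overlap.

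H19 was lower without overlap in clusters 2 and 4. It stood at 2577 to 2799 against 3136 to 4211 CPM in cluster 2 and at 1869 to 2113 against 2123 to 3009 CPM in cluster 4. Rian was so in cluster 2 (1001 to 1171 against 1267 to 2545 CPM). Plagl1 was lower without overlap in cluster 6 (481 to 605 against 612 to 656 CPM) and higher in the tenocyte-like cluster (124 to 328 against 104 to 116 CPM), and the other 6 members separated in no cluster.

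**Figure D3:**
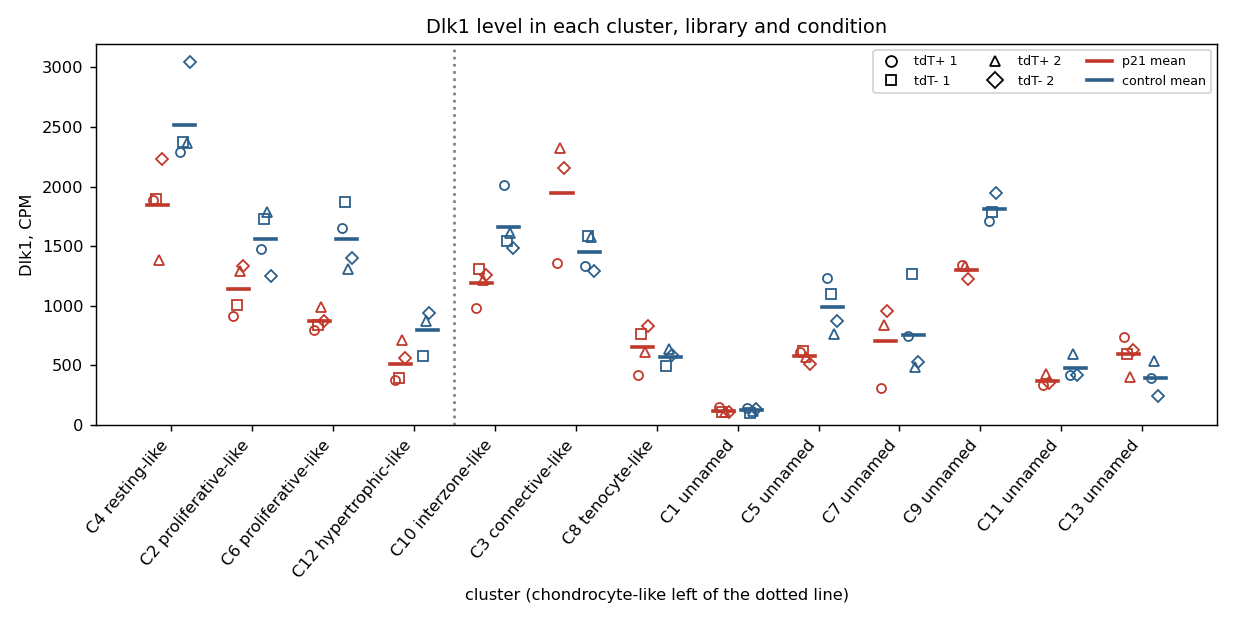
Dlk1 (CPM) by cluster and condition, with a symbol per library and a line for each mean. Pan-Cart-p21MOE values lie below control values in 10 of 13 clusters by mean and without overlap in 5, and above them by mean in the loose connective tissue-like cluster (1945 against 1447 CPM).

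In all other cells 0 of the 10 genes were called, where 0.00705% of 14178 genes (1 gene) were called and 5.97% had an unadjusted p under 0.05 by edgeR, against 0 members. DESeq2 and limma voom called 0 members there too. Dlk1 stood at 534, 605, 877 and 1035 CPM in Pan-Cart-p21MOE and 864, 1220, 673 and 834 CPM in control cells of tdT+ 1, tdT- 1, tdT+ 2 and tdT- 2. It was thus lower in both libraries of collection 1 (log2 changes of -0.69 and -1.01) and higher in both of collection 2 (0.38 and 0.31). The same split follows sex, since the 4 female sums (864 to 1220 CPM) all lay above the 4 male sums (534 to 834 CPM). Each collection held both sexes, with sex and condition paired in reverse. A sex effect and a condition effect that turns between collections therefore cannot be told apart here. How many of all genes separate by sex in this way was not counted. The 95% interval of the pooled log2 change ran from -0.661 to 0.226. H19 (0.04), Meg3 (0.07), Rian (-0.03) and Plagl1 (0.20) had log2 changes near 0 or positive in these cells, with adjusted p from 0.905 to 1.00 by edgeR. In all cells together 0 members were called (0.0269% of 14880 genes) and 1, Dlk1, had an unadjusted p under 0.05 (7.08% of genes), all by edgeR. Dlk1 there had a log2 change of -0.39 with an adjusted p of 0.613 by edgeR.

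**Figure D4:**
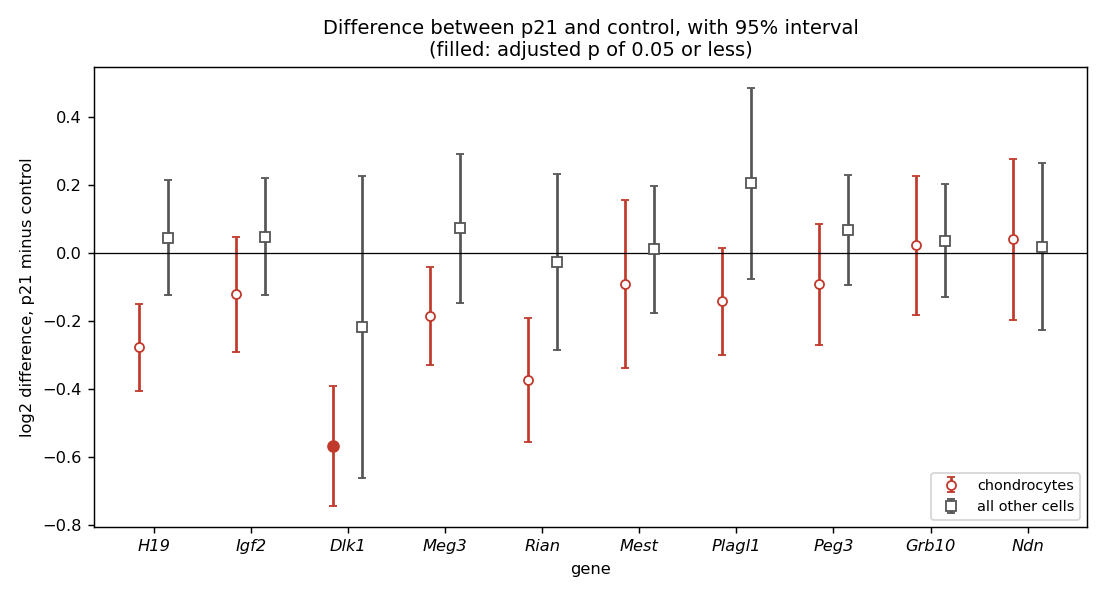
Log2 difference of Pan-Cart-p21MOE minus control for each gene with its 95% interval, in chondrocytes (circles) and all other cells (squares), filled where the adjusted p was 0.05 or less. Only Dlk1 in chondrocytes (-0.57) is filled, and the intervals of H19, Rian and Meg3 in chondrocytes lie below 0.

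Whether the change differed between chondrocytes and other cells was tested by the interaction of condition and class. No gene was called among 14421 by edgeR (989 genes, or 6.86%, had an unadjusted p under 0.05, and DESeq2 called 13), members included. The difference of log2 changes was -0.32 for H19 (adjusted p = 0.383), -0.32 for Dlk1 (adjusted p = 0.822) and -0.33 for Rian (adjusted p = 0.747), all by edgeR, and 9 of the 10 values were negative, with a median of -0.20 against 0.0011 over all genes. A change particular to chondrocytes was therefore not shown for any member. The interaction of condition and fraction within chondrocytes likewise called 0 of 12280 genes by edgeR (316 genes, or 2.57%, had an unadjusted p under 0.05, and DESeq2 called 1), with a value of -0.14 for Dlk1.

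The Gli1-lineage fraction made little difference to these genes in chondrocytes. Between tdT+ and tdT- chondrocytes 0 members were called by edgeR, DESeq2 or limma voom (0 had an unadjusted p under 0.05 by edgeR, against 4.79% of all genes, and 0.017% of all genes were called), and the log2 differences of tdT+ minus tdT- ran from -0.12 for Mest to 0.15 for Rian. In all other cells 0 members were called by edgeR, where 0.994% of all genes were, and 2 members (Plagl1 and Grb10) had an unadjusted p under 0.05, as had 12.2% of all genes. Grb10 stood at 947, 889, 960 and 894 CPM in the tdT+ pseudobulks and 778, 769, 671 and 784 CPM in the tdT- pseudobulks, without overlap (log2 difference 0.30, adjusted p = 0.112 by edgeR). Peg3 did not overlap either, at 719 to 760 against 606 to 716 CPM, where 3.94% of all genes were higher in tdT+ cells without overlap. Plagl1 ran lower in tdT+ cells with overlap, at 160 to 248 against 238 to 307 CPM (log2 difference -0.43, adjusted p = 0.172 by edgeR). With the embryo pool as a replicate block, its adjusted p by edgeR was 0.0349 and the count of genes called rose from 141 to 300. Marker lists moved with the fraction in these cells. The general chondrocyte list summed to 2932 to 3712 CPM in tdT+ and 3760 to 5246 CPM in tdT- cells, and the hypertrophic list to 179 to 307 and 87.7 to 118 CPM, neither with overlap or a marker at 0. The interzone, tenocyte, immune, erythroid (1 of 8 markers at 0) and Schwann cell lists also did not overlap, and their part was not tested.

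From cell to cell, pairs of members varied together both within and across the chromosomal domains. Correlations were computed over the cells of each pseudobulk after thinning to 5000 UMIs, and are given as the median of Pearson's r over 8 pseudobulks of 32 to 248 chondrocytes. Cells of a pseudobulk share library and embryo pool, so these are descriptions. Meg3 and Rian had the highest value (0.63, from 0.428 to 0.783), and H19 and Igf2 stood at 0.43 (0.256 to 0.711). In all other cells the same pairs had 0.57 and 0.51. Dlk1 correlated with Meg3, from the opposite parental copy, at 0.36 in chondrocytes and 0.38 in other cells, and with Rian, of the same domain, at 0.19 and 0.21. It correlated with Mest, on chromosome 6, at 0.43 in chondrocytes and 0.10 in other cells. Rian and Peg3 stood at 0.46 and Meg3 and Peg3 at 0.39 in chondrocytes, while Mest and Plagl1 had a negative value in every pseudobulk (-0.21). H19 and Igf2 were close to unrelated to Meg3 (-0.10 and -0.06). Of the 45 pairs, 9 were positive and 1 negative in all 8 pseudobulks, 27 had medians within 0.1 of 0, and the median pair stood at 0.0524.

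Within single chondrocyte-like clusters some of these pairs had other values. Within cluster 2 (7 pseudobulks) Meg3 and Rian stood at 0.56 and H19 and Igf2 at 0.46, and within the resting cluster 4 (5 pseudobulks) at 0.52 and 0.42. Mest and Dlk1 stood at 0.22 in cluster 2 and 0.43 in cluster 4. Dlk1 and Meg3 stood at 0.33 in cluster 2 and 0.07 in cluster 4, Dlk1 and Rian at 0.24 and -0.0032, and Rian and Peg3 at 0.31 and 0.13. Within cluster 2, Meg3 ran against both H19 (-0.24) and Igf2 (-0.27), with a negative value in 7 of 7 pseudobulks each.

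**Figure D5:**
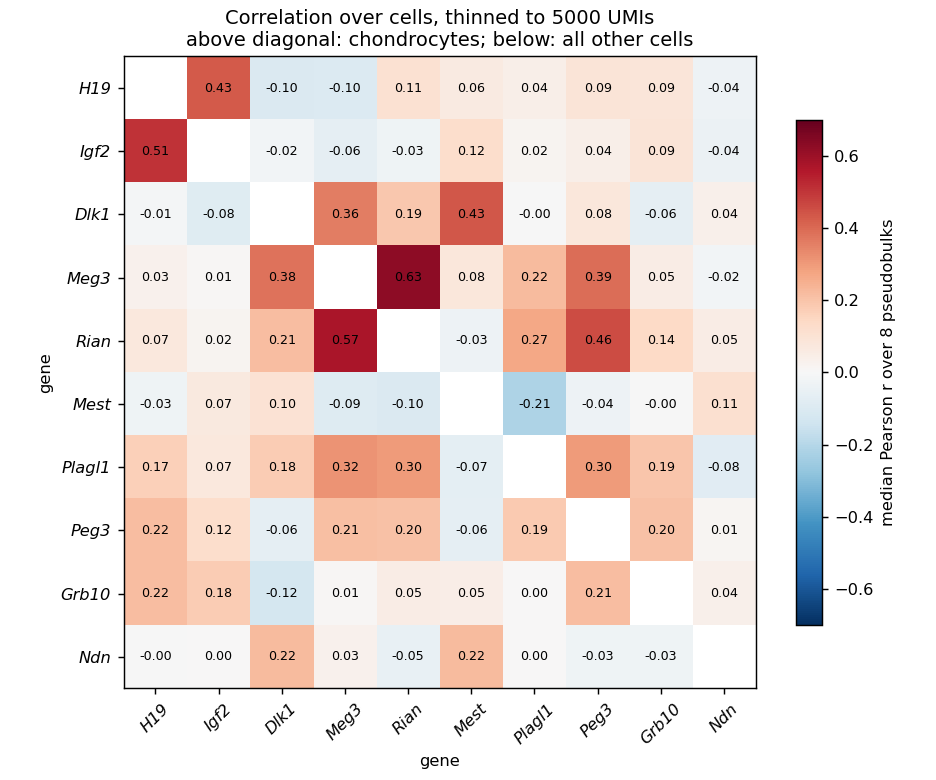
Median Pearson r over pseudobulks for each pair of genes, over cells thinned to 5000 UMIs, with chondrocytes above and all other cells below the diagonal. Meg3 with Rian (0.63 and 0.57) and H19 with Igf2 (0.43 and 0.51) are high in both, and Mest with Dlk1 stands at 0.43 in chondrocytes and 0.10 in other cells.

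Over cell types the same pairs led. Across 112 pseudobulks of cluster, library and condition and 7076 genes with a mean of at least 20 CPM, the gene most like Igf2 was H19 and the gene most like H19 was Igf2 (r = 0.79), and Meg3 and Rian were likewise each other's closest gene (r = 0.95). These points share libraries and embryo pools, so the values are descriptions. The next genes after these were B830012L14Rik (0.86 with Meg3, 0.87 with Rian) and Mirg (0.85 with both), 2 non-coding RNAs of the same domain at chr12:109695586-109702587 and chr12:109729764-109749460, downstream of Rian on the same strand. Dlk1 was most like Fibin (0.78), Jund (0.67) and Socs3 (0.66), and Meg3 ranked 8 for it (0.65). For H19 the closest genes outside the members were Foxc1 (0.74), Fgfr2 (0.73) and Lgr4 (0.70), and for Igf2 Fgfr2 (0.73), Ptch1 (0.69) and Foxc1 (0.67). Plagl1 was most like Sdk2 (0.86), Peg3 like Ubn2 (0.82), Grb10 like Auts2 (0.78) and Ndn like Maged2 (0.67).

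The wider set of imprinted genes and the IGF pathway gave few calls. Of 49 other imprinted genes listed, 47 were among the features and 39 were tested in chondrocytes, and 0 were called between Pan-Cart-p21MOE and control by edgeR, 9 of them with an unadjusted p under 0.05. Over all genes these shares were 0.553% and 11.3%, as given above. Of the 39, 16 had positive and 23 negative log2 changes, with a median of -0.0247. Outside the chondrocytes 0 of 44 were called by edgeR, with 1 at an unadjusted p under 0.05 (5.97% of all genes). Of 18 genes of the IGF axis (ligand, receptors, binding proteins, proteases and mRNA-binding proteins), 15 were tested in chondrocytes, and 1 was called, Igfbp5, which encodes an IGF binding protein and was lower in Pan-Cart-p21MOE (log2 change -0.96, SE 0.122, adjusted p = 0.0072 by edgeR). Outside the chondrocytes 2 of 18 were called lower in tdT+ than in tdT- cells, Htra1, which encodes a protease that cuts IGF binding proteins (log2 difference -1.78, adjusted p = 0.0017 by edgeR), and Igfbp2, another IGF binding protein (-0.78, adjusted p = 0.0381 by edgeR), where 0.994% of all genes were called. The 7 tenocyte markers moved with them, at 671 to 873 CPM in tdT+ and 1001 to 1330 CPM in tdT- cells with none at 0, and their part was not tested. The IGF2 receptor gene Igf2r, which clears Igf2 protein, had a log2 change of 0.01 between Pan-Cart-p21MOE and control chondrocytes.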

How the data were processed

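Data were 4 libraries of E14.5 hindlimb cells (10x, 3′ counting). Per the labels and methods, the authors used Cell Ranger 7.2.0 and a GRCm38 reference extended by the transgenes, and the values they deposited are raw UMI counts. The methods also name DoubletFinder, CellBender and the removal of low-count cells, but nothing in the counts shows them, and whether intronic reads were counted was not given in the sources used here. The genes and gene lists were chosen with earlier results of these data known. The genes named are all 10 members, for each member the 3 genes outside them most correlated over pseudobulks, up to 5 called genes of the other imprinted and IGF lists, and WPRE and Cdkn1a. The count of 4 members without overlap was singled out after its values were seen.

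A barcode was kept from 1000 UMIs and 500 genes, with no more than 10% of its UMIs mitochondrial (33.0% to 81.9% of barcodes had fewer than 1000 UMIs). Condition came from sex transcripts (at least 2 UMIs, 80% of them of the same sex), and 277 barcodes of mixed sex were left out as doublets. Many more barcodes that passed the filter got no sex by this rule and were left out. These were 178 of 706 in tdT+ 1, 349 of 772 in tdT- 1, 455 of 1483 in tdT+ 2 and 2747 of 3912 in tdT- 2. Scrublet marked 1 to 3 barcodes per library at its own threshold, so that threshold was not used. Instead, among barcodes with at least 3000 UMIs that passed the filter, the 5% with the highest Scrublet scores per library were left out. Cells were reduced to 30 principal components of 2000 variable genes, leaving out the members, other imprinted genes, sex genes, transgenes and 398 cell cycle genes, and clustered at a resolution of 1 (scanpy 1.11.5, leidenalg 0.10.2). Clusters were named from markers, so names may differ from the authors'.

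Summed counts were tested in R 4.3.3 with edgeR 4.0.16 (filterByExpr, TMM, glmQLFit and glmQLFTest), with fraction as a covariate, or condition for tdT+ against tdT-, and a threshold of 0.05 on the adjusted p over all genes (Benjamini-Hochberg). DESeq2 1.42.0 and limma 3.58.1 (voom) were alternatives. Intervals are 95% intervals of the fit. In simulated data for the chondrocyte comparison (11757 genes), edgeR recovered 65.7% of genes changed by a log2 value of 1 and 93.7% of those changed by 2. The simulated sums were independent, without shared embryo pools, and both values exceed the change of every member. Recovery of changes of the members' size was therefore not measured. Deviations of the 2 conditions of a library correlated at -0.0433 to 0.0776, so the library number did not pair them, but they share a reaction. Deviations of the tdT+ and tdT- sums of an embryo pool, which come from the same embryos, correlated at 0.109 to 0.382 (11357 genes). The pool deviations were taken from the mean of a fraction over both conditions, so they also hold differences of condition and sex. Those of the libraries were taken from the mean of a condition, so the 2 sets of correlations are not comparable. The main tests did not pair the tdT+ and tdT- sums of a pool. They were paired only in the alternatives with the embryo pool as a replicate block or with the fractions summed.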

Additional observations from a re-analysis of the deposited data

Results flagged for a closer look

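Among 80 groups of 4 pseudobulks, 6 held a value far from the other 3, where chance gives about 1 in 20. In chondrocytes, Ndn stood at 98.7 CPM in Pan-Cart-p21MOE of tdT+ 1 against 127 to 133 CPM in the other Pan-Cart-p21MOE pseudobulks, and Rian at 1102 CPM in the control of tdT+ 1 against 846 to 880 CPM in the other controls. In all other cells, Pan-Cart-p21MOE of tdT- 2 held H19 at 1813 CPM against 2135 to 2167 CPM, and Pan-Cart-p21MOE of tdT+ 1 held Peg3 at 760 CPM against 714 to 719 CPM. Within the tdT- pseudobulks of other cells, Grb10 stood at 671 CPM in the control of tdT- 1 against 769 to 784 CPM, and Meg3 at 2118 CPM in Pan-Cart-p21MOE of tdT- 2 against 1816 to 1839 CPM.

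Barcodes under 1000 UMIs, which entered no comparison, were richer in Igf2 than the kept cells in 4 of 4 libraries, by a ratio of 1.65 to 2.36 (1484 to 2183 against 813 to 988 CPM). Meg3 stood in them at 0.211 to 0.293 of its level in kept cells and Rian at 0.222 to 0.251.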

How the results depend on the processing

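For the count of genes called between Pan-Cart-p21MOE and control chondrocytes (65, 1 of them a member), alternatives gave 147 genes (3 members) with DESeq2, 111 (3) with limma voom, 488 (3) without the filter on low counts, 98 with sex as a further covariate, 17 (0) with fractions summed, 35 (0) at a resolution of 0.5 and 37 (2) with the library as a replicate block. Alternatives chosen after seeing the data gave 0 (0) in the resting cluster, 19 (0) in the proliferative clusters and 2 members without cluster 21. Leaving out 1 pseudobulk gave 8 to 59 genes and 0 to 1 members. In all other cells (1 gene) the count was 9 with DESeq2, 286 without the filter, 0 without the covariate or with fractions summed, and 1 to 3 leaving out 1 pseudobulk. In all cells (4 genes) it was 51 with DESeq2, 460 (1 member) without the filter, 0 with the library as a replicate block, without the covariate or with fractions summed, and 0 to 4 leaving out 1 pseudobulk. For tdT+ against tdT- chondrocytes (2 genes) it was 10 with DESeq2, 1 with limma voom, 194 without the filter, 16 with the embryo pool as a replicate block and 1 to 9 leaving out 1 pseudobulk, and in all other cells (141 genes) 299 (1 member), 1046 (3) without the filter, 300 (1) with the pool block and 15 to 162. The interaction with class gave 13 genes with DESeq2 and 272 without the filter, and that with fraction gave 1 with DESeq2. The causes were not tested.

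Dlk1 kept its direction in all 20 alternatives of the chondrocyte comparison and its call in 15. The 5 exceptions were a resolution of 0.5 (-0.57, adjusted p = 0.123 by edgeR) and those given with its result. At that resolution a cluster of 422 cells, scoring best on the resting list and second on the interzone list, went unnamed. It therefore counted among the other cells, which also bears on H19 below. The chondrocyte class then held 342 Pan-Cart-p21MOE and 189 control cells, against 513 and 308 in the main analysis. H19 (5 of 20) and Rian (3 of 20) passed the threshold in some, H19 also without cluster 21 (adjusted p = 0.0479 by edgeR), which was chosen after seeing the data. The replicate block changed no other call of a member than those of H19 and, between fractions, Plagl1. Signs that turned belonged to small log2 values. Grb10 in chondrocytes was -0.0445 at a resolution of 0.5 and -0.0018 in the proliferative clusters, Ndn -0.0358 at that resolution, Peg3 0.0589 in the resting cluster, and H19 in other cells -0.0318 at that resolution. Leaving out 1 pseudobulk gave ranges of -0.0414 to 0.0905 for Grb10, -0.0322 to 0.12 for Ndn and -0.21 to 0.0149 for Mest in chondrocytes, and of -0.012 to 0.158 for Meg3 and -0.133 to 0.0557 for Rian in other cells. Of the correlations, Mest with Dlk1 was 0.22 in cluster 2, Rian with Peg3 0.13 in cluster 4, and Dlk1 with Meg3 0.48 without thinning and 0.0678 in cluster 4. With 34 cells in the smallest chondrocyte pseudobulk and 2 embryo pools per condition, small differences could not be resolved.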
